A study of Homo sapiens with 8 samples.

Results

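The 4 tissue inhibitors of metalloproteinases (TIMP1, TIMP2, TIMP3 and TIMP4) and 6 matrix metalloproteinases (MMP1, MMP2, MMP3, MMP7, MMP9 and MMP14) were followed over 8 Agilent arrays, each read in 2 colours, of cell lines from human cancers. They were found by gene name among the probes that were not controls, which gave 10 genes of 43317 and 10 probes of 58201, 1 probe per gene. The family was chosen by measured values, since TIMP3 was far lower with both GINS1 siRNAs and on no other array. The ratios of the 10 genes on the GINS1 arrays, and those of TIMP3 on every array, are therefore given as a description. Where a fit over all probes calls a member on the GINS1 arrays, nothing is read from that call. For the other 9 genes, the levels in untransfected cells and the ratios on the miRNA arrays were not used in that choice. The level of TIMP3 in untransfected cells is not independent of it, because a fall can be seen only where the level is above background.

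The lines were A498 and 786-O (renal cancer), MDA-MB-231 (breast cancer) and HCT116 (colorectal cancer). Every array compared a transfected culture, labelled with Cy5, with mock cells of the same line that had received no transfection, labelled with Cy3, and Lipofectamine RNAiMAX carried the RNA into the transfected cells. A498 and 786-O each received miR-139-5p on one array and miR-139-3p on another, MDA-MB-231 received siRNA 1 or siRNA 2 against GINS1, and HCT116 received miR-490-5p or miR-490-3p. Each array thus stands for 1 line with 1 agent: the replicates of a miR-139 strand were different lines, those of si-GINS1 different siRNAs, and the miR-490 groups had 1 array each. No array carried a scrambled control RNA and no dyes were swapped, so an effect of the lipid reagent or of a probe's dye preference cannot be told apart from that of the transfected RNA. In bulk RNA, fewer cells that make a transcript and less transcript per cell cannot be told apart either. The labels do not say whether both arrays of a line used a common mock extract.

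TIMPs are small secreted proteins that bind metalloproteinases and block the zinc ion in the active site. Metalloproteinases cut collagens, gelatin, proteoglycans and many cell surface proteins, and tumour cells use them when they invade the matrix. The pairing is not only inhibitory: TIMP2 bound to the membrane protease MMP14 captures the inactive form of MMP2 and helps to activate it, and TIMP3, which stays bound to the matrix, also blocks the ADAM sheddases.

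The transfected miRNAs are printed because the miR-139 and miR-490 results below are given separately for each strand. The sequences are those of RefSeq (GRCh38.p14), 5′ to 3′, with the seed (bases 2 to 8) in capitals.

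miR-139-5p: uCUACAGUgcacgugucuccagu

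miR-139-3p: uGGAGACGcggcccuguuggagu

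miR-490-5p: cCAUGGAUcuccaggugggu

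miR-490-3p: cAACCUGGaggacuccaugcug

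The 4 seeds were all different. The DNA words complementary to them are ACTGTAG for miR-139-5p, CGTCTCC for miR-139-3p, ATCCATG for miR-490-5p and CCAGGTT for miR-490-3p. None of the 10 probes held any of these words on the strand of the transcript, and between 0.168% and 0.448% of all probes held a given one. A probe covers a short piece of a transcript, so this says only that the letters are not in that window.

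Depth and identity of the samples were checked first. The scanner software flagged between 24983 and 29687 probes per array as well above background in one channel or both, and a gene is called measured on an array here where its probe carried that flag. The Cy3 levels of both mock channels of a line differed with an SD of 0.07 to 0.10 log2 units. GINS1, the target of both siRNAs and a subunit of the replicative helicase, had a log2 ratio of -1.31 with siRNA 1 and -1.92 with siRNA 2, and between -0.11 and 0.55 on the other arrays. Of the line markers, the epithelial gene EPCAM had a log2 level of 12.01 in HCT116 and 5.98 to 8.02 elsewhere, the intestinal factor CDX2 was well above background in HCT116 alone, and the mesenchymal gene VIM stood between 14.85 and 15.32 in the other 3 lines and at 6.81 in HCT116. CAV1 was highest in MDA-MB-231, at 12.39 against 10.63 to 10.93 elsewhere. CDH1, an epithelial gene, was well above background in HCT116, at 9.29, and also in MDA-MB-231, at 6.29. Of the hormone receptor genes, PGR was well above background in no line. ESR1 was dim but well above background in every line, and so did not set MDA-MB-231 apart. The renal factor PAX8 was well above background in all lines, at 6.36 in HCT116, 6.76 in MDA-MB-231, 8.16 in 786-O and 8.23 in A498. PAX2, another renal factor, was so in both renal lines and also in HCT116, at 6.94. CDH6, also taken as renal, was so in the renal lines alone, at 6.36 in A498 and 10.25 in 786-O. The renal cancer antigen CA9 was not on both arrays of either renal line, and the intestinal genes VIL1, GPA33 and KRT20 were not on both arrays of HCT116, while GPA33 was in MDA-MB-231, at 6.14. The leukocyte gene PTPRC was dim but well above background in every line, at 6.03 to 6.21, the endothelial gene PECAM1 was not on both arrays of any line, and their part in any result was not tested.

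A log2 ratio here is the normalized intensity of the transfected channel over that of the mock channel, and a log2 level is the normalized intensity of 1 channel. Levels of different probes are not compared. Of the 80 pairs of a gene and an array, 53 had the flag in one channel or both. TIMP1, TIMP2, MMP9 and MMP14 were well above background on all 8 arrays, TIMP3 on 2, TIMP4 on 4, MMP1 on 5, MMP2 on 3, MMP7 on 7 and MMP3 on none. Among the 53, with the default processing, 3 log2 ratios lay at or below -1 and 0 at or above 1. These 3 were TIMP3 with each siRNA and TIMP2 with siRNA 1.

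**Figure D1:**
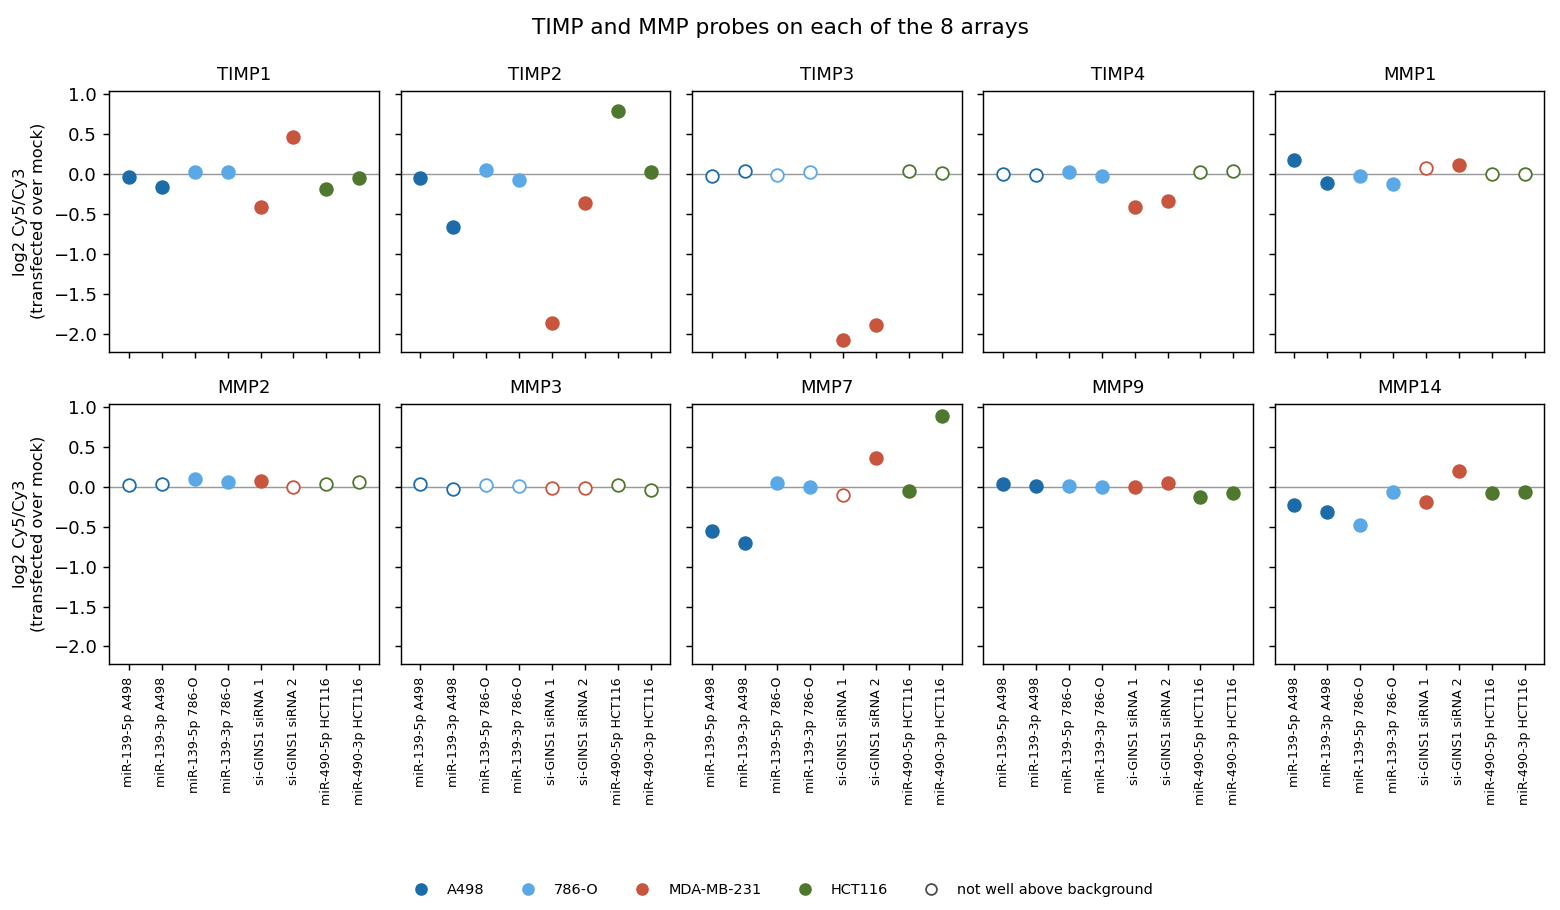
Log2 ratio of transfected over mock (vertical axis) for each of the 10 genes on each of the 8 arrays (horizontal axis), 1 point per array, coloured by cell line, with open points where neither channel was well above background. TIMP3 has filled points on 2 arrays only, both near -2, and MMP3 has none.

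TIMP3 was measured in MDA-MB-231 alone. Its only probe (NM_000362, hg19 chr22:33258540-33258599, plus strand) had a log2 ratio of -2.08 with siRNA 1 and -1.89 with siRNA 2, which left 23.7% and 27.0% of the mock intensity. On the remaining 6 arrays the ratio lay between -0.02 and 0.04. Those 6 values do not show a stable transcript, because neither channel was well above background on any of them. The mock level was 9.59 and 9.60 on the MDA-MB-231 arrays and 5.73 to 5.79 on the others, where the lowest level that the software called well above background was 5.81 to 5.87. The loss left a signal that was still measured: the Cy5 level was 7.51 with siRNA 1 and 7.72 with siRNA 2, in both cases well above background. In A498, 786-O and HCT116 a fall of TIMP3 could not have been seen, and no miRNA brought the transcript to a measurable level.

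**Figure D2:**
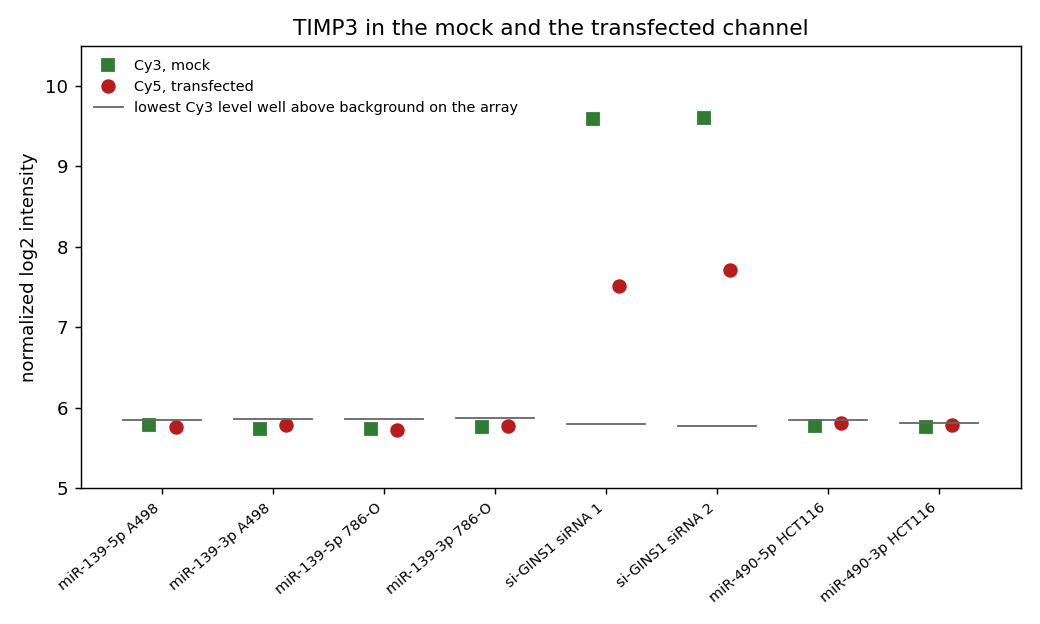
Normalized log2 intensity (vertical axis) of the TIMP3 probe in the mock channel (green squares) and the transfected channel (red circles) of each array (horizontal axis), with a grey line at the lowest Cy3 level called well above background on that array. Both channels stand above the line on the MDA-MB-231 arrays alone, at 9.59 and 9.60 for the mock and 7.51 and 7.72 after the siRNAs.

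On both GINS1 arrays 27808 probes were measured, and of the 27804 with a ratio on each, 60 (0.216%) lay at or below -1 with both siRNAs. TIMP3 was 1 of 3 among these 60 (5% of them) that were well above background on no other array, and 50 (83.3%) were well above background on all 6 others. Over all 27808 probes, 933 (3.36%) were measured on no other array, a share near that of the 60, and the low values themselves chose TIMP3. The 5 genes with the profile nearest to TIMP3, by Euclidean distance over the 8 log2 ratios among 21427 genes, were LBR (distance 0.38), MBP (0.77), DBH-AS1 (0.81), KCTD12 (0.81) and LOC101927318 (0.84). LBR, the lamin B receptor of the inner nuclear membrane, had log2 ratios of -2.07 and -1.86 with the siRNAs. Unlike TIMP3 it was measured on all 8 arrays, with 0.01 to 0.36 on the miRNA arrays. MBP and KCTD12 were also measured on all 8 and DBH-AS1 on 6, so among the 5 the long noncoding LOC101927318 alone resembled TIMP3 in being measured on the 2 GINS1 arrays only.

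The ratio of TIMP2 differed between the siRNAs. Its probe (NM_003255, hg19 chr17:76849063-76849122, minus strand) had a log2 ratio of -1.86 with siRNA 1, or 27.5% of the mock, and -0.37 with siRNA 2, or 77.5%. Both arrays started from like mock levels, 13.78 and 13.72, and the gap between the siRNAs of 1.49 log2 units was wider than that of any other of the 6 genes measured on both. The value with siRNA 1 kept its direction in every alternative processing, between -1.90 and -1.10. The value with siRNA 2 did not: it was 0.16 when each array was centred on its median in place of an intensity-dependent normalization. A difference between the siRNAs could not be tested, with 1 array each.

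TIMP1 lay on opposite sides of 0 with the siRNAs. Its probe (NM_003254, hg19 chrX:47444666-47444725, plus strand) had a log2 ratio of -0.41 with siRNA 1 and 0.46 with siRNA 2, equal to 75.1% and 138% of the mock. Here too the value of siRNA 1 turned with median centring, to 0.22, while that of siRNA 2 stayed above 0 in each alternative, at 0.44 to 0.85. TIMP4, an inhibitor with a narrow tissue range (NM_003256, hg19 chr3:12194728-12194787, minus strand), was dim and gave -0.42 with siRNA 1 and -0.33 with siRNA 2. Its mean of -0.38 ranged from -0.68 with the scanner's own ratio to -0.19 with median centring.

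TIMP1, TIMP4 and TIMP3 lie within the synapsin genes SYN1, SYN2 and SYN3 respectively in the RefSeq annotation (GRCh38.p14). The hosts did not share the signal of the TIMP genes. SYN1 and SYN3 were well above background on 0 arrays, and SYN2 on the HCT116 arrays only, where TIMP4 was not measured and SYN2 had log2 ratios of 0.36 and 0.99 with the 5p and 3p strands.

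MMP14 and MMP9 were the proteases measured in both channels of both GINS1 arrays. MMP14, the membrane-anchored protease that activates MMP2 (NM_004995, hg19 chr14:23315791-23315850, plus strand), gave -0.19 with siRNA 1 and 0.20 with siRNA 2. MMP9, a gelatinase (NM_004994, hg19 chr20:44645121-44645180, plus strand), gave 0.00 and 0.05 at a level near the detection limit. The other 4 proteases were not measured in the mock channel of MDA-MB-231. MMP7, the short protease matrilysin (NM_002423, hg19 chr11:102394029-102394088, minus strand), was well above background in the Cy5 channel of siRNA 2 alone, where its log2 ratio was 0.36. On that same basis MMP1, the interstitial collagenase (NM_002421, hg19 chr11:102660697-102660756, minus strand), gave 0.12 with siRNA 2 and MMP2, the other gelatinase (NM_004530, hg19 chr16:55540518-55540577, plus strand), 0.07 with siRNA 1. For these dim probes the scanner's own log2 ratio was 2.12 for MMP7, 1.79 for MMP1 and 0.98 for MMP2 on those arrays, so the size of the 3 values depends on the background correction. MMP3, stromelysin 1 (NM_002422, hg19 chr11:102706694-102706753, minus strand), was at background in all 16 channels. MMP1 was the only member with more than 1 spot, and its 10 spots differed with an SD of 0.05 on each GINS1 array.

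Fitted across all probes in limma, 1010 of 27808 probes (3.63%) were called lower with the GINS1 siRNAs and 927 (3.33%) higher, with an adjusted p below 0.05. Of the 6 members that passed the filter on dim probes, TIMP3 and TIMP4 were among those lower and 0 among those higher. Since the family was chosen on this contrast, nothing is read from that count. The median log2 ratio of the 6 was -0.19, against 0.01 over all tested probes. By size alone, 1.86% of the measured probes were at or below -1 with siRNA 1, TIMP3 and TIMP2 among them, and 1.15% with siRNA 2, TIMP3 among them.

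**Figure D3:**
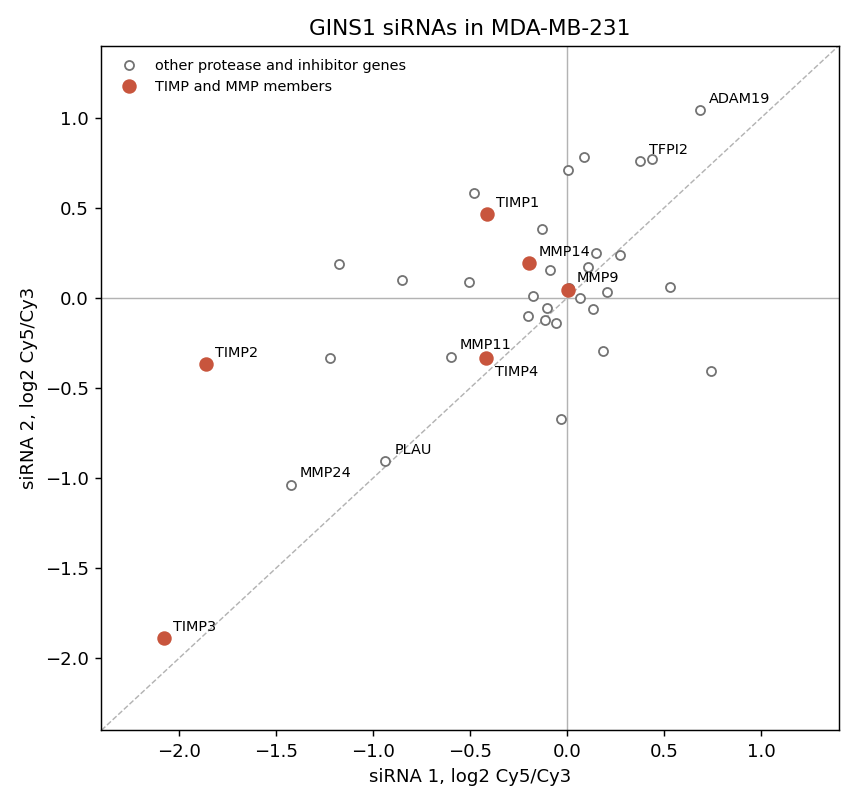
Log2 ratio with siRNA 1 (horizontal axis) against siRNA 2 (vertical axis) in MDA-MB-231 for the 6 members measured on both arrays (filled) and 31 other protease and inhibitor genes (open), with the dashed line marking equal values. TIMP3 lies near the line at -2.08 and -1.89, TIMP2 far to the left of it at -1.86 and -0.37, and TIMP1 in the upper left, at -0.41 and 0.46.

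The wider protease network was taken from 6 lists with 49 genes on the array, including the 3 synapsin genes that host TIMP genes. Of the 49 genes, 31 were measured with both siRNAs, with 0 synapsin genes among them. In limma 3 were called lower and 2 higher, adjusted over all probes, against 3.63% and 3.33% of all probes. These calls take the 2 siRNAs as replicates and their spread from all groups. Over all probes 75 were called with the scanner's ratio and 0 when the GINS1 arrays were fitted alone. Whether each network call holds with other processing is not given here. MMP24, a membrane-type protease, had log2 ratios of -1.42 and -1.04 (adjusted p = 0.0206 in limma). MMP11, stromelysin 3, had -0.60 and -0.33 (limma adjusted p = 0.0392). PLAU, the urokinase that turns plasminogen into plasmin, had -0.94 and -0.91 (limma adjusted p = 0.0497).

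The 2 genes called higher were a protease and an inhibitor. ADAM19, a cell surface sheddase, had log2 ratios of 0.69 with siRNA 1 and 1.05 with siRNA 2 (limma adjusted p = 0.0252), and TFPI2, a secreted inhibitor of serine proteases, 0.38 and 0.76 (limma adjusted p = 0.0412). By list, 2 of 8 measured other MMPs were lower and 0 higher, 1 of 8 ADAM and ADAMTS proteases was higher, 1 of 5 other inhibitors and partners was higher, 1 of 5 plasminogen activation genes was lower, and of 5 cathepsins 0 were called. The median log2 ratio of the 31 genes was 0.03, against 0.01 over all tested probes.

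With miR-139 in the renal lines the question was whether either strand moved the family. TIMP1 and TIMP2 were measured on all 4 arrays. TIMP1 gave -0.03 and -0.16 in A498 with the 5p and 3p strands and 0.03 with each in 786-O. In A498, TIMP2 gave -0.05 with the 5p strand but -0.67, or 63.0% of the mock, with the 3p strand, and in 786-O it gave 0.05 and -0.08. The low value of TIMP2 was thus limited to 1 of the 4 arrays, and across alternatives it lay between -0.71 and -0.40.

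MMP7 and MMP14 showed the lowest ratios among the proteases. In A498, MMP7 gave -0.55 with the 5p and -0.70 with the 3p strand, or 68.1% and 61.5% of the mock, and in 786-O 0.04 and 0.00. Its A498 values shared a direction between the strands, on arrays that may share a mock extract, and the difference between the lines was not tested. MMP14 gave -0.23 and -0.31 in A498 and -0.47 and -0.07 in 786-O. All 4 values lay below 0, though that of miR-139-5p in A498 became 0.075 with median centring. MMP1 gave 0.18 and -0.11 in A498, where it was dim, and -0.02 and -0.12 in 786-O. MMP2, measured in 786-O only, gave 0.10 and 0.06, and MMP9 lay between 0.00 and 0.03 on the 4 arrays. TIMP4, also measured in 786-O only, gave 0.03 and -0.02.

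No member passed the test with either strand. In limma, 3 of 23291 probes (0.0129%) were called for miR-139-5p, and 0 of 22815 (0%) for the 3p strand. Before adjustment 593 and 1014 probes had a p under 0.05. Of 6 members tested per strand, 0 were called, and the adjusted p was 0.9999 for each in limma. Their median log2 ratio was 0.00 with the 5p and -0.15 with the 3p strand, against 0.00 over all tested probes for both. MMP14 with miR-139-5p had an unadjusted limma p of 0.0368 for a mean log2 ratio of -0.35 (SE 0.12, SD 0.17, n = 2), lower in 2 of 2 lines, and with miR-139-3p 0 members were under 0.05. The largest mean of the 3p strand was that of TIMP2, -0.37 (SE 0.36, n = 2). The contrast of the strands in limma called 0 of 22183 probes (0%). Before adjustment 151 had a p under 0.05, with 0 members among them.

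By size, 0 members were at or below -1 on the miR-139 arrays with the default processing. With the scanner's own ratio, MMP1, dim in A498, fell below -1 in that line with the 3p strand, at -1.31 or 40.4% of the mock. With the 5p strand its scanner ratio in A498 went the other way, to 199.9% of the mock. Over all measured probes the share at or below -1, with the default processing, was 0.0705% for the 5p and 0.148% for the 3p strand in A498. In 786-O it was 0.032% and 0.0358%.

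In HCT116 the 5p and 3p strands of miR-490 were followed on 1 array each, so no value there has a replicate or a test. TIMP2 gave 0.79 with the 5p strand, or 173% of the mock, and 0.02 with the 3p strand. MMP7 showed the reverse order, -0.05 with the 5p and 0.89 with the 3p strand, the latter 186% of the mock. The MMP7 probe was dim in HCT116, with a mean spot brightness of 31.7 in Cy3 and 96.7 in Cy5 over local backgrounds of 14 and 16 on the miR-490-3p array. Its ratio therefore depended on the background correction, from 0.89 to 1.49 without one and 2.30 with the scanner's own ratio.

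The other members stayed closer to 0 in HCT116. TIMP1 gave -0.18 and -0.05, MMP9 -0.12 and -0.08, and MMP14 -0.08 and -0.07, the 5p strand first. With the default processing, none of the 5 members measured there passed the size rule, while 0.963% of all measured probes were at or below -1 with the 5p strand and 0.578% with its partner, and 0.265% and 0.346% at or above 1. This depended on the processing: MMP7 with miR-490-3p was above 1 in 4 of 5 alternatives, at 1.05 to 2.30, and at 0.96 with median centring, and TIMP2 with miR-490-5p reached 1.29 with dye bias removed. Of the network, PLAU lay at -2.34 and -1.49, the hyaluronan receptor CD44 at -1.10 with miR-490-5p, and ADAM19 at 1.15 with the 3p against -0.78 with the 5p strand.

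Levels in the mock cells show which of these genes each line expressed before any transfection, in 2 channels per line. The 2 channels may hold 1 extract, so the p-values measure the spread between these channels, which may be technical. Across the 4 lines 26355 of 29689 probes (88.8%) differed in limma's F test, and so did 9 of 9 members tested, a share near that background. TIMP3 and MMP2 entered through a single line and had to differ.

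**Figure D4:**
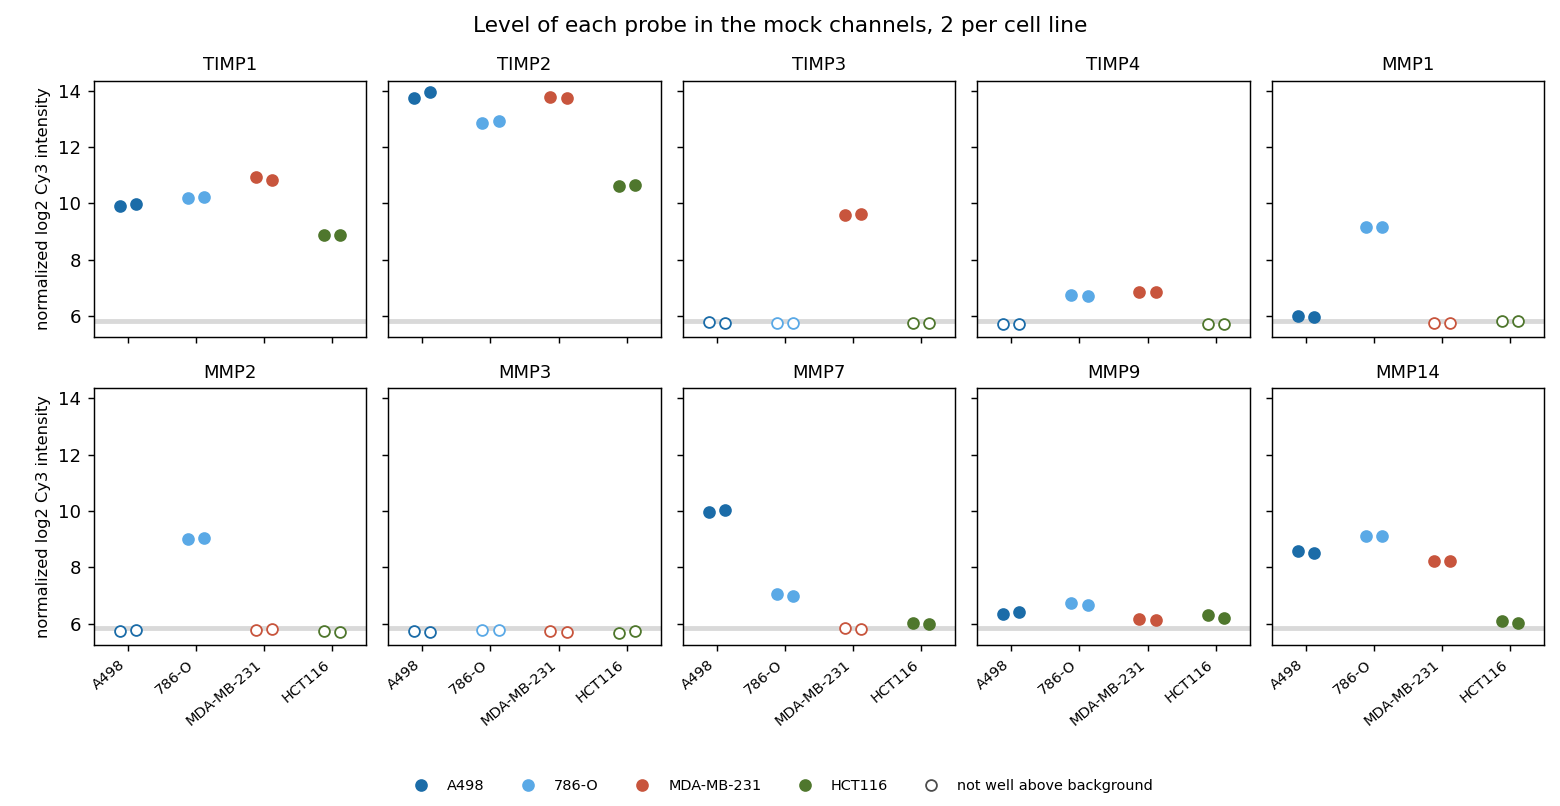
Normalized log2 Cy3 intensity (vertical axis) of each gene in the 2 mock channels of each cell line (horizontal axis), with open points where a probe was not well above background in both channels and a grey band over the lowest levels called well above background. TIMP3 stands out of the band in MDA-MB-231 only, MMP2 in 786-O only, and TIMP1, TIMP2, MMP9 and MMP14 in all 4 lines.

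Among the inhibitors, TIMP1 was highest in MDA-MB-231, at 10.88 ± 0.06 (SD, n = 2 for this and all levels that follow), followed by 786-O at 10.22 ± 0.02, A498 at 9.95 ± 0.06 and HCT116 at 8.87 ± 0.01. Each neighbour in that order differed, the closest pair by 0.27 log2 units (limma adjusted p = 0.000285), and the ends by 4.03-fold. TIMP2 was high in A498 at 13.84 ± 0.14 and MDA-MB-231 at 13.75 ± 0.04, which differed by 0.09 log2 units (SE 0.06), a gap that missed the threshold in limma (adjusted p = 0.23). It followed at 12.89 ± 0.06 in 786-O and 10.64 ± 0.02 in HCT116, 9.19-fold below A498 (limma adjusted p = 3.68e-13).

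TIMP3 in MDA-MB-231, at 9.59 ± 0.01, was at least 13.3-fold higher than in any other line, a bound because the others were not well above background. The choice of TIMP3 by its fall in MDA-MB-231 required a level above background there, so this gap is a description only. TIMP4 reached 6.87 ± 0.00 in MDA-MB-231 and 6.72 ± 0.02 in 786-O, 1.11-fold apart (limma adjusted p = 0.00675), and was not well above background in A498 or HCT116. MDA-MB-231 was thus the only line in which all 4 inhibitors were measured, and HCT116 had the lowest level of the 2 that were measured everywhere.

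The proteases followed another order, with 786-O at the top for all but MMP7 among those measured in the mock channels. MMP1 stood at 9.16 ± 0.02 in 786-O and 5.98 ± 0.03 in A498, 9.05-fold apart (limma adjusted p = 2.77e-14), and not well above background in the other lines. MMP2 stood at 9.03 ± 0.02 in 786-O, at least 9.09-fold higher than in any other line. MMP14 ranged from 9.11 ± 0.01 in 786-O through 8.53 ± 0.05 in A498 and 8.24 ± 0.00 in MDA-MB-231 to 6.06 ± 0.05 in HCT116, with every neighbour different (limma adjusted p = 7.57e-05 for the closest pair) and the ends 8.23-fold apart. Folds against a dim level are compressed by the offset of the background correction: the MMP14 gap between 786-O and HCT116 was 3.04 log2 units by default but 4.26 with an offset of 10 and 5.36 with the scanner's processed signal, and the MMP1 gap between 786-O and A498 3.18, 4.54 and 5.86. The mock channels of 786-O therefore held transcripts of MMP14, MMP2 and TIMP2, whose proteins form the activation complex. Those of the other 3 lines held MMP14 and TIMP2 transcripts, with MMP2 not well above background. Protein and the activation of MMP2 were not measured.

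MMP7 was highest in A498, at 9.99 ± 0.05, 7.86-fold above 786-O at 7.02 ± 0.04 and 15.8-fold above HCT116 at 6.01 ± 0.01 (limma adjusted p = 7.63e-14 and 3.29e-15), and at least 18.0-fold above MDA-MB-231. MMP9 was low throughout, at 6.71 ± 0.05 in 786-O, 6.37 ± 0.04 in A498, 6.25 ± 0.07 in HCT116 and 6.14 ± 0.03 in MDA-MB-231, and the last pair missed the threshold (limma adjusted p = 0.0699). MMP3 was not well above background in any line and was not tested.

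Counted by pairs of lines in limma, 8 of the 9 tested members differed between A498 and 786-O against 61.9% of all probes, 7 between A498 and MDA-MB-231 (69.4%), and 6 between A498 and HCT116 (71.4%). The counts were 9 between 786-O and MDA-MB-231 (65.9%), 8 between 786-O and HCT116 (69.4%) and 6 between MDA-MB-231 and HCT116 (65.4%). Since TIMP3 and MMP2 passed the filter only through the line where they were high, their calls in pairs with that line were fixed and nothing is read from these counts. Of the 10 members 6 were well above background in both mock channels of A498, 8 of 786-O, 6 of MDA-MB-231 and 5 of HCT116, compared with 38.9% to 44.4% of all probes per line.

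MMP7, MMP1 and MMP3 belong to a row of 9 MMP genes on chromosome 11, in the RefSeq order MMP7, MMP20, MMP27, MMP8, MMP10, MMP1, MMP3, MMP12 and MMP13. On hg19 the MMP1 probe lay 45.9 kb from that of MMP3 and 266.6 kb from that of MMP7. 786-O had 4 of the 9 well above background in both mock channels, namely MMP7, MMP10, MMP1 and MMP13, the last a collagenase at a level of 9.63. A498 had MMP7 and MMP1, HCT116 had MMP7, and MDA-MB-231 had 0 of 9. The line with the largest set of inhibitors had none of these proteases well above background in its mock channels. MMP7 and MMP1 had the flag there in the Cy5 channel of siRNA 2.

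The reference sequence ahead of TIMP3 and MMP7 is printed because TIMP3 was measured in the mock channels of 1 line only and MMP7 stood well above the other lines in A498. Both were chosen after their values were seen. RefSeq promoter windows (GRCh38.p14) matched 5 members, TIMP1, TIMP3, TIMP4, MMP7 and MMP14, and the 250 bases before the start were read. For TIMP3 (chr22:32801455-32801704, plus strand) the capitals mark CpG dinucleotides. For MMP7 (chr11:102530748-102530997, minus strand) they mark TGAGTCA, the AP-1 word, and TATAAA, the TATA word, each searched on both strands.

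TIMP3: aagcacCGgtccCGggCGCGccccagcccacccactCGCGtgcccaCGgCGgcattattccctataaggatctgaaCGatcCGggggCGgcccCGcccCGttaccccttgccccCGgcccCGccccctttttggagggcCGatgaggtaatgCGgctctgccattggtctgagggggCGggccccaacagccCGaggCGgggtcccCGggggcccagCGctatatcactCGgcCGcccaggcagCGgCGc

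MMP7: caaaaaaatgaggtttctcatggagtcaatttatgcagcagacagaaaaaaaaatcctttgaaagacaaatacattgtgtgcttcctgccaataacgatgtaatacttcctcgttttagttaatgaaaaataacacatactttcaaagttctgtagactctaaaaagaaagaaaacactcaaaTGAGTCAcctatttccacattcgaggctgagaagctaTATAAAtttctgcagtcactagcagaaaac

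The TIMP3 window held 26 CpG dinucleotides, a count reached by 19.6% of 35116 promoter windows, whose median was 11. The other windows held 12 for TIMP1, 11 for TIMP4, 7 for MMP14 and 3 for MMP7. The AP-1 word began 67 bases and the TATA word 30 bases before the start of MMP7, and neither word was in the windows of the other 4 members. Over all windows 4.2% held the AP-1 word and 10.7% the TATA word. These are matches of letters in a reference sequence, and methylation and factor binding were not measured here.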

How the data were processed

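Per the file headers, the authors scanned 8 two-colour arrays on 1 slide with Agilent Feature Extraction 11.5.1.1 and used probe positions on hg19. The deposited intensity columns give the mean brightness of each spot and its median local background, not normalized, and a deposited log10 column holds Cy5 over Cy3 after the software's own corrections. That log10 ratio, in log2, was used as an alternative, as was the deposited processed Cy3 intensity. The series table held the same ratios.

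Spots with an outlier flag were left out (112 to 194 per array, 0 saturated). Background was corrected by normexp with an offset of 50, which draws dim ratios toward 0, and ratios were normalized by loess within arrays in limma 3.58.1 (R 4.3.3, with the data.table package in version 1.17.8). Levels were further scaled by Aquantile. A spot's flag of well above background decided what was measured.

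A single limma fit of the 8 arrays, with a coefficient for each of the 5 groups (3 residual degrees of freedom), tested ratios against 0. A probe was tested for a group if each of its arrays had the flag in one channel or both. Mock levels were tested by line (4 residual degrees of freedom). The Benjamini-Hochberg adjustment ran over all tested probes, with 0.05 as the threshold. Single arrays were read by size, with limits of -1 and 1 on the log2 ratio. Bounds marked "at least" were taken against the lowest level well above background. The steps were tested on simulated data. All members are named. Network genes are named where they passed the test or the size rule, by their brightest probe, and neighbours of TIMP3 by distance. One network result is not reported here. The members and lists were chosen with earlier results of these data known. The arrays of the 2 miR-139 strands pair through the line they were run in, and deviations of same-line arrays from their strand means had a correlation of 0.0753 over 22183 probes. Sequences and plots used Python 3.11.15, pandas 2.3.3, numpy 2.4.6 and matplotlib 3.10.9.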

Additional observations from a re-analysis of the deposited data

Results flagged for a closer look

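With the default processing, TIMP1 lay on opposite sides of 0 in the renal lines with both strands of miR-139. Its mean log2 ratio was -0.10 in A498 and 0.03 in 786-O, a gap of -0.12 log2 units. The difference was not tested, and with the scanner's own ratio the value of miR-139-3p in 786-O was -0.0014, below 0. The SD between the mock channels of A498 was 0.10 log2 units over the 23431 probes well above background in both.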

How the results depend on the processing

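With the GINS1 siRNAs, 2 members were called (TIMP3 and TIMP4), a description only, since the family was chosen on this contrast. This became 1 (TIMP3) with the scanner's ratio and with median centring, 3 to 4 without either siRNA (the remaining array takes its spread from the other groups), 3 with cell line as a random block, and 0 when the GINS1 arrays were fitted alone. The mean log2 ratio of TIMP3 was -2.18 with the scanner's ratio, -2.18 with an offset of 10, -2.16 without background correction, -1.62 with median centring and -2.08 to -1.89 without either siRNA. Median centring moved the median of tested probes to 0.19 with siRNA 1 and 0.07 with siRNA 2. The calls split 52.1% lower by default, 78.7% with the scanner's ratio, 64.7% with the offset of 10 and 9.58% with median centring. It also reversed TIMP2 with siRNA 2 (0.16), TIMP1 with siRNA 1 (0.22) and MMP14 with miR-139-5p in A498 (0.075). Of 67 alternative values of TIMP4 with the siRNAs and of selected single arrays for TIMP1, TIMP2, MMP7 and MMP14, 64 kept their sign. The smallest single-array ratios were not among those selected. All probes called with the siRNAs numbered 1937 by default, 75 with the scanner's ratio, 2975 with median centring, 1113 with dye bias removed, 6709 to 9470 without either siRNA, 10520 with line as a random block and 0 in the GINS1 arrays alone. For miR-139-5p the 3 calls became 7 with the scanner's ratio, 6 with the offset of 10 and 0 in the other alternatives bar no background correction. For miR-139-3p the 0 became 13, 6 and 4 (no background correction). Members called stayed at 0 for both strands, also with cell line as a random block. They stayed at 0 for the difference of the strands too, where cell line entered as a replicate block in place of the random block. In the mock levels 9 members were called by default and 4 when a probe had to be well above background on all 8 arrays, since only 4 then entered. The causes of the other shifts were not tested. Dim probes limit what the arrays resolve.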
